A study of Mus musculus with 18 samples.

Results

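The 10 genes described here encode 5 bone morphogenetic protein (BMP) ligands, Bmp2, Bmp4, Bmp5, Bmp6 and Bmp7, and 5 secreted antagonists that bind such ligands, Nog (noggin), Grem1 (gremlin 1), Chrd (chordin), Bmper and Fst (follistatin). They were chosen by name from the 21881 gene symbols of the count tables of 18 RNA-seq libraries, and all 10 symbols have a line in each table. BMPs are secreted dimers of the TGF-beta superfamily that bind paired type I and type II serine/threonine kinase receptors, which phosphorylate SMAD1, SMAD5 and SMAD9 and so turn on targets such as the Id genes. Antagonists bind the ligands outside the cell and keep them from their receptors, so the signal a cell receives depends on both sets of genes in its neighbourhood. In the embryo, BMP4 from the mesenchyme under the dorsal aorta is known as a regulator of the hematopoietic stem cells that arise from the aortic endothelium.

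The libraries came from embryonic day 11 mouse embryos of a C57BL6 BRE-GFP strain, whose reporter places green fluorescent protein under BMP response elements and so labels cells that respond to BMP. Cells of the aorta-gonad-mesonephros (AGM) region were sorted into HPSC (CD31 positive, Kit positive, enriched for hematopoietic progenitor and stem cells), MC (negative for both, enriched for mesenchymal cells) and EC (CD31 positive, Kit negative, enriched for endothelial cells), and each into BRE-GFP positive and negative fractions. Each population was taken from fresh AGM, from AGM explants kept with BMP and Hedgehog, and from explants kept with cyclopamine as well. Cyclopamine inhibits the Hedgehog transducer Smoothened. There were 18 combinations with 1 library each. All groups carry the reporter, so there is no reporter-free control, and how many embryos went into a library is not given in the sources used here. Without repeat libraries, every p-value measures the spread of an effect between matched libraries, part of which may be technical.

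Counts assigned to genes ranged between 3041249 (HPSC cyclopamine negative) and 21972063 (MC cyclopamine positive) per library, and between 10297 and 18816 symbols had a count. HPSC cyclopamine negative, MC fresh positive (12028 symbols, 4547062 counts) and EC cyclopamine negative (11006 symbols) had the fewest detected symbols of their populations and stand apart in several values below. Pecam1, which encodes CD31, and Kit followed the sort gates. Markers of other cell types were counted in each sort. The 10 mesenchymal markers (among them Pdgfra, Pdgfrb and Col1a1) summed to 298 to 1039 CPM in HPSC, 2881 to 8373 CPM in MC and 1131 to 7218 CPM in EC, with all 10 counted in every EC library and 9 of 10 in every HPSC library. The 10 endothelial markers summed to 392 to 7859 CPM in HPSC, 76.7 to 230.5 CPM in MC and 527 to 8412 CPM in EC. The 8 macrophage markers summed to 633 to 5290 CPM in HPSC, 53.2 to 181 CPM in MC and 1010 to 7140 CPM in EC. CPM are counts scaled to a common library size after TMM adjustment, and 0 counts in a library allow a level of up to 0.136 to 1.13 CPM, depending on its depth (3 counts, counting error only).

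Bmp4, Bmp5 and Bmper were the genes that differed between populations in the tests below, and their promoters are shown for that reason, as the 250 bases before the transcription start in RefSeq on GRCm38.p6, written 5′ to 3′ on the gene's strand. Bmper (chr9:23223076-23485200, plus strand) encodes a secreted protein with von Willebrand type C domains that binds BMPs, and is the vertebrate counterpart of Drosophila crossveinless 2. Bmp4 lies at chr14:46383520-46390669 (minus strand) and Bmp5 at chr9:75775364-75900310 (plus strand). Matches to the SMAD-binding letters GGCGCC or CAGAC on either strand are in capitals. The windows are chr9:23222826-23223075 for Bmper, chr14:46390670-46390919 for Bmp4 and chr9:75775115-75775364 for Bmp5.
Bmper: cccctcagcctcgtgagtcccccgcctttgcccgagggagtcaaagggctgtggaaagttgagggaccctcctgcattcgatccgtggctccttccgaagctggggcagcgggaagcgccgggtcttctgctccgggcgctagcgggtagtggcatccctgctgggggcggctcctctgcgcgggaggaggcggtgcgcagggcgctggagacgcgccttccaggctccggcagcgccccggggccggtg
Bmp4: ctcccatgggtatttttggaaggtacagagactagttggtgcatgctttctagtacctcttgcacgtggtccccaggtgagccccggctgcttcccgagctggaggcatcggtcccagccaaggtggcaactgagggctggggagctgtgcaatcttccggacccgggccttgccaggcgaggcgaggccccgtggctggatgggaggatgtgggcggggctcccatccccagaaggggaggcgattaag
Bmp5: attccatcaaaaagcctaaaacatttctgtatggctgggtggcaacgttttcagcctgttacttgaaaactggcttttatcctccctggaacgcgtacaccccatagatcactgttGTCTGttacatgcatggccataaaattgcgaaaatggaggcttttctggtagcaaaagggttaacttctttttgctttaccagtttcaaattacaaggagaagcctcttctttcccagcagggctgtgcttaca
The Bmp5 window, with a GC content of 42.8%, held 1 CAGAC match on the opposite strand, 134 bases before the start, while the windows of Bmper (71.6% GC) and Bmp4 (63.2% GC) held neither motif. Of 32851 mouse promoter windows of this length, 9.59% held GGCGCC and 42.2% held CAGAC. RefSeq windows were found for 6 of the 10 genes.

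Bmp4 was the ligand with the highest level per length in most libraries, and Bmper the antagonist. Scaled by exon length (CPM per kb of exon), Bmp4 led the 5 ligands in 3 of 6 HPSC, 6 of 6 MC and 4 of 6 EC libraries. Bmp2 led in 2 HPSC libraries (fresh negative and explant positive), Bmp7 in 1 (explant negative) and Bmp5 in both cyclopamine EC libraries. Bmper led the 5 antagonists in 5 of 6 HPSC, 6 of 6 MC and 5 of 6 EC libraries, and Fst led in HPSC fresh negative and EC fresh negative. The 5 ligands summed to 0.817 to 19.2 CPM per kb in HPSC, 25.6 to 50.9 CPM per kb in MC and 17.8 to 41.1 CPM per kb in EC. The 5 antagonists summed to 0.124 to 5.81 CPM per kb in HPSC, 13.1 to 36.5 CPM per kb in MC and 2.10 to 52.9 CPM per kb in EC. Ligand sums of MC lay above every HPSC sum, and the antagonist sums of the 2 fresh EC libraries, 2.10 and 4.41 CPM per kb, lay within the HPSC range.

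**Figure D1:**
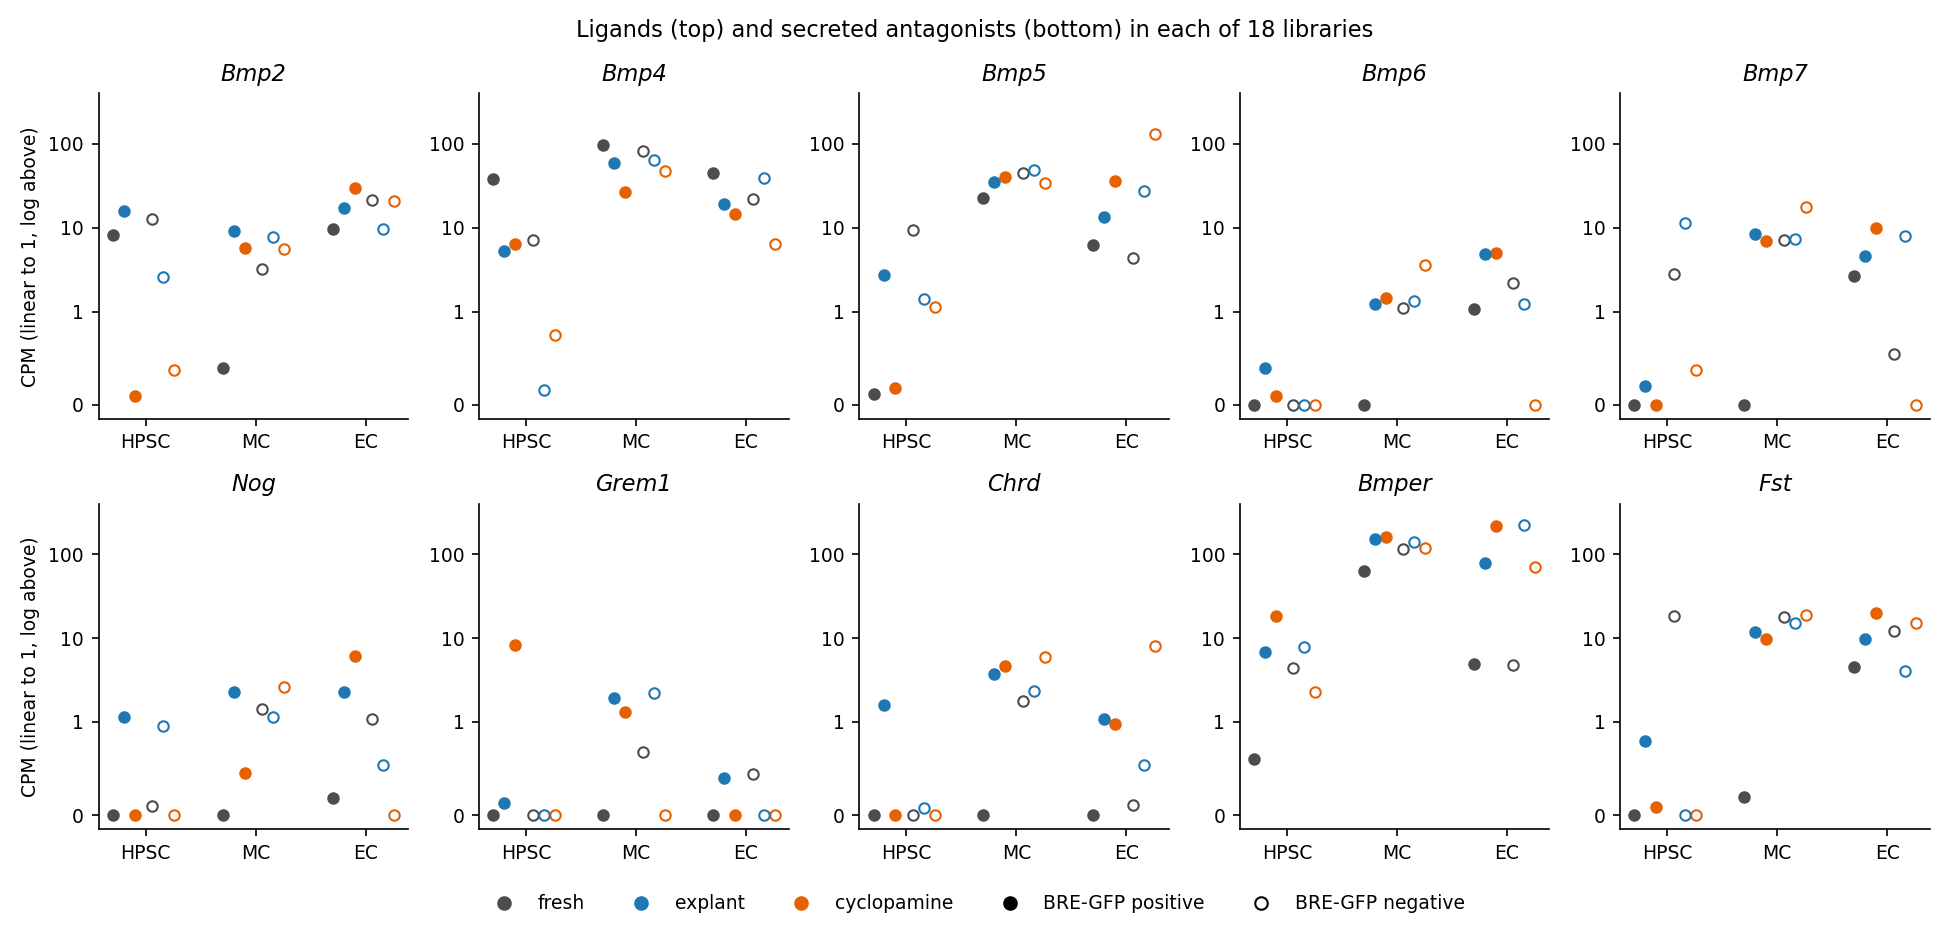
Level of each of the 10 genes in each of the 18 libraries, in CPM (vertical axis, linear to 1 and logarithmic above), by population. Colour gives the culture, filled points are BRE-GFP positive and open points BRE-GFP negative libraries. Bmper stands between 62.9 and 159.9 CPM in MC and between 0.598 and 18.2 CPM in HPSC.

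**Figure D2:**
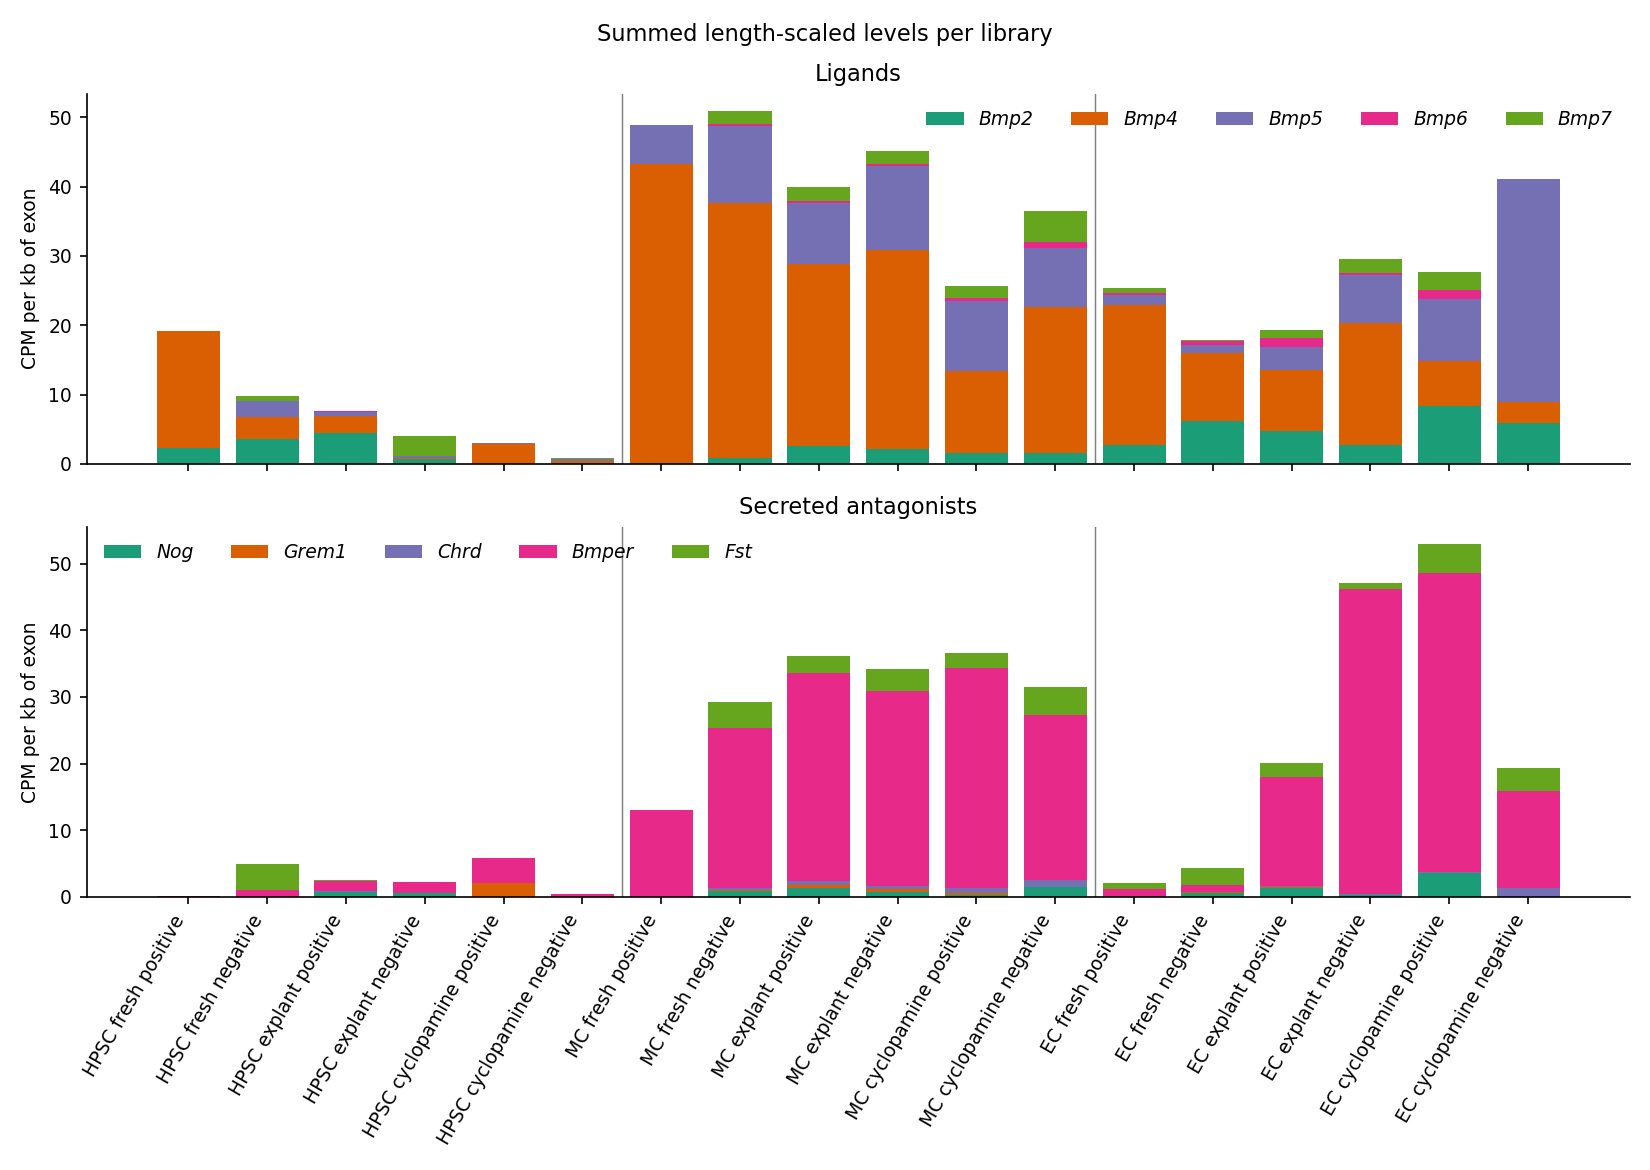
Stacked levels per length of the 5 ligands (top) and the 5 secreted antagonists (bottom) in each library, in CPM per kb of exon. Bmp4 is the largest ligand segment in all 6 MC bars, with 46.0 to 88.2% of the bar, and Bmper takes 78.9 to 99.7% of the antagonist bar there.

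Among the ligands, Bmp4, a ligand with broad roles in mesoderm and blood formation, stood at 0.159 to 37.9 CPM in HPSC (median 5.87), 26.5 to 97.1 CPM in MC (median 61.8) and 6.50 to 45.3 CPM in EC (median 20.9). The HPSC library with the highest Bmp4, fresh positive at 37.9 CPM, lay inside the MC range, and the next highest HPSC library was at 7.17 CPM. Bmp5, a ligand of the Bmp5, Bmp6 and Bmp7 subgroup known for skeletal patterning, stood at 0.120 to 9.40 CPM in HPSC (median 1.28), 22.8 to 48.6 CPM in MC (median 37.9) and 4.38 to 129.8 CPM in EC (median 20.4). Every MC library lay above every HPSC library, while the EC range covered the whole MC range. Bmp2, the closest relative of Bmp4 (chr2:133552159-133562885, on the plus strand), was counted at 0.0911 to 16.0 CPM in HPSC (median 5.38), 0.400 to 9.18 CPM in MC (median 5.72) and 9.69 to 29.7 CPM in EC (median 19.1). Each EC library had more Bmp2 than any MC library, the lowest EC value of 9.69 CPM standing just above the highest MC value of 9.18 CPM.

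Bmp6 and Bmp7 were less evenly detected. Bmp7, known for kidney and eye development (chr2:172868012-172940321, minus strand), stood at 0 to 11.4 CPM in HPSC (median 0.289), 0 to 17.8 CPM in MC (median 7.31) and 0 to 10.1 CPM in EC (median 3.67). It was listed at 0 in 4 libraries, of which 2 were HPSC, 1 MC and 1 EC, so all 3 ranges began at 0. Bmp6, best known as the hepatic inducer of hepcidin (chr13:38345107-38500302, on the plus strand), was counted at 0 to 0.401 CPM in HPSC (6 counts at most), 0 to 3.62 CPM in MC and 0 to 5.04 CPM in EC. It had no count in 4 HPSC, 1 MC and 1 EC library. The strand setting of the counting is not given in the sources used here, so reads in exons shared with a gene on the opposite strand cannot be assigned, which concerns 1878 exonic bases of Bmp5 (shared with Gm26903), 224 of Bmp6 (Txndc5) and 89 of Bmp4 (Gm15217) among the ligands, and 239 of Chrd (Thpo) and 115 of Fst (Gm47040) among the antagonists. Levels per length use all exonic bases, 4025 for Bmp5 and 2248 for Bmp4. If reads in shared exons were lost, these levels are too low, most of all for Bmp5, and the leading ligand of a library could differ.

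Of the antagonists, Bmper had by far the most counts, 18456 over all libraries against 2163 for Fst, the next. It stood at 0.598 to 18.2 CPM in HPSC (median 5.60), 62.9 to 159.9 CPM in MC (median 131) and 4.82 to 222 CPM in EC (median 74.8). Fst, which binds activins more tightly than BMPs (chr13:114452290-114458951, minus strand), stood at 0 to 18.2 CPM in HPSC (median 0.0456), 0.200 to 19.1 CPM in MC (median 13.5) and 4.09 to 19.8 CPM in EC (median 11.0). HPSC fresh negative, at 18.2 CPM, was the 1 HPSC library with more than 0.801 CPM of Fst, and MC fresh positive, at 0.200 CPM, the 1 MC library below 9.77 CPM.

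Nog, Chrd and Grem1 had the fewest counts of the 5 antagonists, 290, 441 and 205 over all libraries. Nog (chr11:89300638-89302332, minus strand) had no count in 5 libraries and reached 1.14 CPM in HPSC, 2.62 CPM in MC and 6.17 CPM in EC. Chrd, whose product is cleaved by the BMP1 and tolloid proteases to release BMP (chr16:20733127-20742384, plus strand), had no count in 6 libraries and reached 1.60 CPM in HPSC, 5.89 CPM in MC and 8.06 CPM in EC. Grem1 (chr2:113746164-113758646, minus strand) had no count in 10 libraries. Its level was 8.38 CPM (92 counts) in HPSC cyclopamine positive and at most 2.24 CPM in any other library.

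HPSC held less Bmp4, Bmp5 and Bmper transcript than MC, and these 3 were the members that passed in that comparison. Bmper averaged 6.69 ± 6.26 CPM in HPSC and 125 ± 35.0 CPM in MC (SD, n = 6 each), a log2 fold change of -4.88 ± 0.68 (SE) with an edgeR adjusted p of 0.000222. Bmp5 averaged 2.50 ± 3.51 CPM in HPSC and 37.8 ± 9.22 CPM in MC (log2 fold change -4.61 ± 1.02, edgeR adjusted p = 0.00843). Bmp4 averaged 9.63 ± 14.2 CPM in HPSC and 62.8 ± 25.1 CPM in MC (log2 fold change -3.46 ± 0.81, edgeR adjusted p = 0.0122). Each of the 3 was lower in HPSC in all 6 blocks, that is, in each pair of libraries with culture and fraction in common, and for Bmp5 and Bmper the groups did not overlap. In bulk samples, fewer cells of a type and less RNA per cell cannot be told apart.

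Of all 16231 genes tested, 5.85% passed as lower in HPSC than in MC and 9.95% passed in either direction, against 3 of these 10 genes, all lower. Genes lower in every block made up 10.8% of all, and genes lower with no overlap 4.85%. The fitted log2 fold change was below 0 for 9 of the 10, with a median of -4.01 against -0.38 over all tested genes. The exception was Bmp2 (0.14 ± 1.17). Grem1 had a fitted value of -2.47 ± 2.65 although its mean was higher in HPSC, 1.42 ± 3.41 CPM against 1.03 ± 0.96 CPM in MC, through the library with 92 counts. Bmp6, Chrd and Fst, with edgeR adjusted p between 0.0743 and 0.0854, did not pass in edgeR but passed in both DESeq2 and limma-voom. Those tools also passed more genes over all, 3580 and 2883 of 16231, against 1615 in edgeR.

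The calls of Bmp4, Bmp5 and Bmper held on leaving out any 1 of the 18 libraries, with highest edgeR adjusted p of 0.0340, 0.0302 and 0.00170 in that order. They held without the 3 libraries of fewest detected symbols (log2 fold changes -3.25, -4.08 and -4.16). Reads outside annotated features made up 19.5 to 43.3% of reads in HPSC and 31.2 to 46.8% in MC. With that share as a covariate Bmp4 no longer passed (log2 fold change -2.77, edgeR adjusted p = 0.246). The summed mesenchymal markers, at most 1039 CPM in HPSC and at least 2881 CPM in MC, also did not overlap. Per 1000 CPM of those markers, Bmp4 stood at 0.534 to 60.6 in HPSC and 3.39 to 28.6 in MC. Bmp5 stood at 0.191 to 9.04 in HPSC and 2.72 to 15.7 in MC, and Bmper at 0.956 to 26.4 in HPSC and 7.51 to 40.4 in MC. These ranges overlapped for all 3 genes. The part of mesenchymal cells in the 3 differences was not tested.

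Against EC, HPSC held less Bmper, the 1 member that passed, where 0.283% of all tested genes passed as lower and 0.320% in either direction. Bmper averaged 6.69 ± 6.26 CPM in HPSC and 99.6 ± 97.7 CPM in EC (SD, n = 6 each; log2 fold change -3.62 ± 0.66, edgeR adjusted p = 0.0306). It was lower in HPSC in all 6 blocks, but the groups overlapped because of the fresh libraries, with 0.598 and 4.46 CPM in fresh HPSC (BRE-GFP positive and negative) and 4.91 and 4.82 CPM in fresh EC. In the 4 cultured blocks HPSC had 2.26 to 18.2 CPM and EC had 70.9 to 222 CPM. Mesenchymal markers moved in the same direction, with 298 to 1039 CPM in HPSC and 1131 to 7218 CPM in EC, and their part in the Bmper difference was not tested.

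This call was close to the threshold. It was kept in 6 of 18 fits that left out 1 library. It was lost without EC cyclopamine positive (edgeR adjusted p = 0.144), EC explant negative (0.102), EC explant positive (0.0837) or EC cyclopamine negative (0.0707). It was also lost without HPSC explant negative (0.104), HPSC cyclopamine positive (0.0857), HPSC cyclopamine negative (0.0812), HPSC fresh positive (0.0654) or HPSC explant positive (0.0632), and without MC fresh negative (0.0546), MC explant positive (0.0546) or MC explant negative (0.0511). The log2 fold change ran between -4.01 and -3.16 in these 18 fits. Without the 3 libraries of fewest detected symbols the edgeR adjusted p was 0.0575.

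The other 9 genes did not pass between HPSC and EC, although all 10 fitted values were below 0 in edgeR (median -2.75, against -0.17 over all tested genes). For Grem1 the sign differed between tools: its fitted value was -0.045 ± 0.62 in edgeR, but 0.80 in DESeq2 and 0.62 in limma-voom, and its mean was 1.42 ± 3.41 CPM in HPSC and 0.140 ± 0.217 CPM in EC. Bmp2 and Bmp4 were, like Bmper, lower in HPSC in all 6 blocks, a pattern of 3.19% of all tested genes. Bmp4 averaged 9.63 ± 14.2 CPM in HPSC and 24.7 ± 14.9 CPM in EC (log2 fold change -1.91 ± 0.77, edgeR adjusted p = 0.430), and Bmp2 averaged 6.63 ± 6.67 CPM in HPSC and 18.2 ± 7.74 CPM in EC (-1.70 ± 1.12, edgeR adjusted p = 0.718). At an unadjusted p under 0.05 there were 5 of the 10, where 9.32% of all genes reached it. DESeq2 passed 4 (Bmp5, Bmp6, Bmper and Fst) and limma-voom 2 (Bmper and Fst), where over all 16231 genes they passed 795 and 228, against 52 in edgeR.

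Between MC and EC none of the 10 genes passed in edgeR, where 2.54% of all tested genes passed. The count was 1 at an unadjusted p under 0.05 (11.4% of all genes), 0 in DESeq2 and 0 in limma-voom. Bmp4 was higher in MC in all 6 blocks, with 62.8 ± 25.1 CPM in MC and 24.7 ± 14.9 CPM in EC (log2 fold change 1.54 ± 0.73, edgeR adjusted p = 0.433), as were 5.83% of all tested genes. Bmp2 was lower in MC in all 6 blocks without overlap, with 5.32 ± 3.15 CPM in MC and 18.2 ± 7.74 CPM in EC (log2 fold change -1.84 ± 1.04, edgeR adjusted p = 0.558), while 4.97% of all genes were lower in every block and 2.30% lower without overlap. Bmper had 62.9 and 116 CPM in fresh MC (BRE-GFP positive and negative) against 4.91 and 4.82 CPM in fresh EC, and 119.7 to 159.9 CPM in cultured MC against 70.9 to 222 CPM in cultured EC. The HPSC, MC and EC comparisons share libraries, so their values are not independent of each other.

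**Figure D3:**
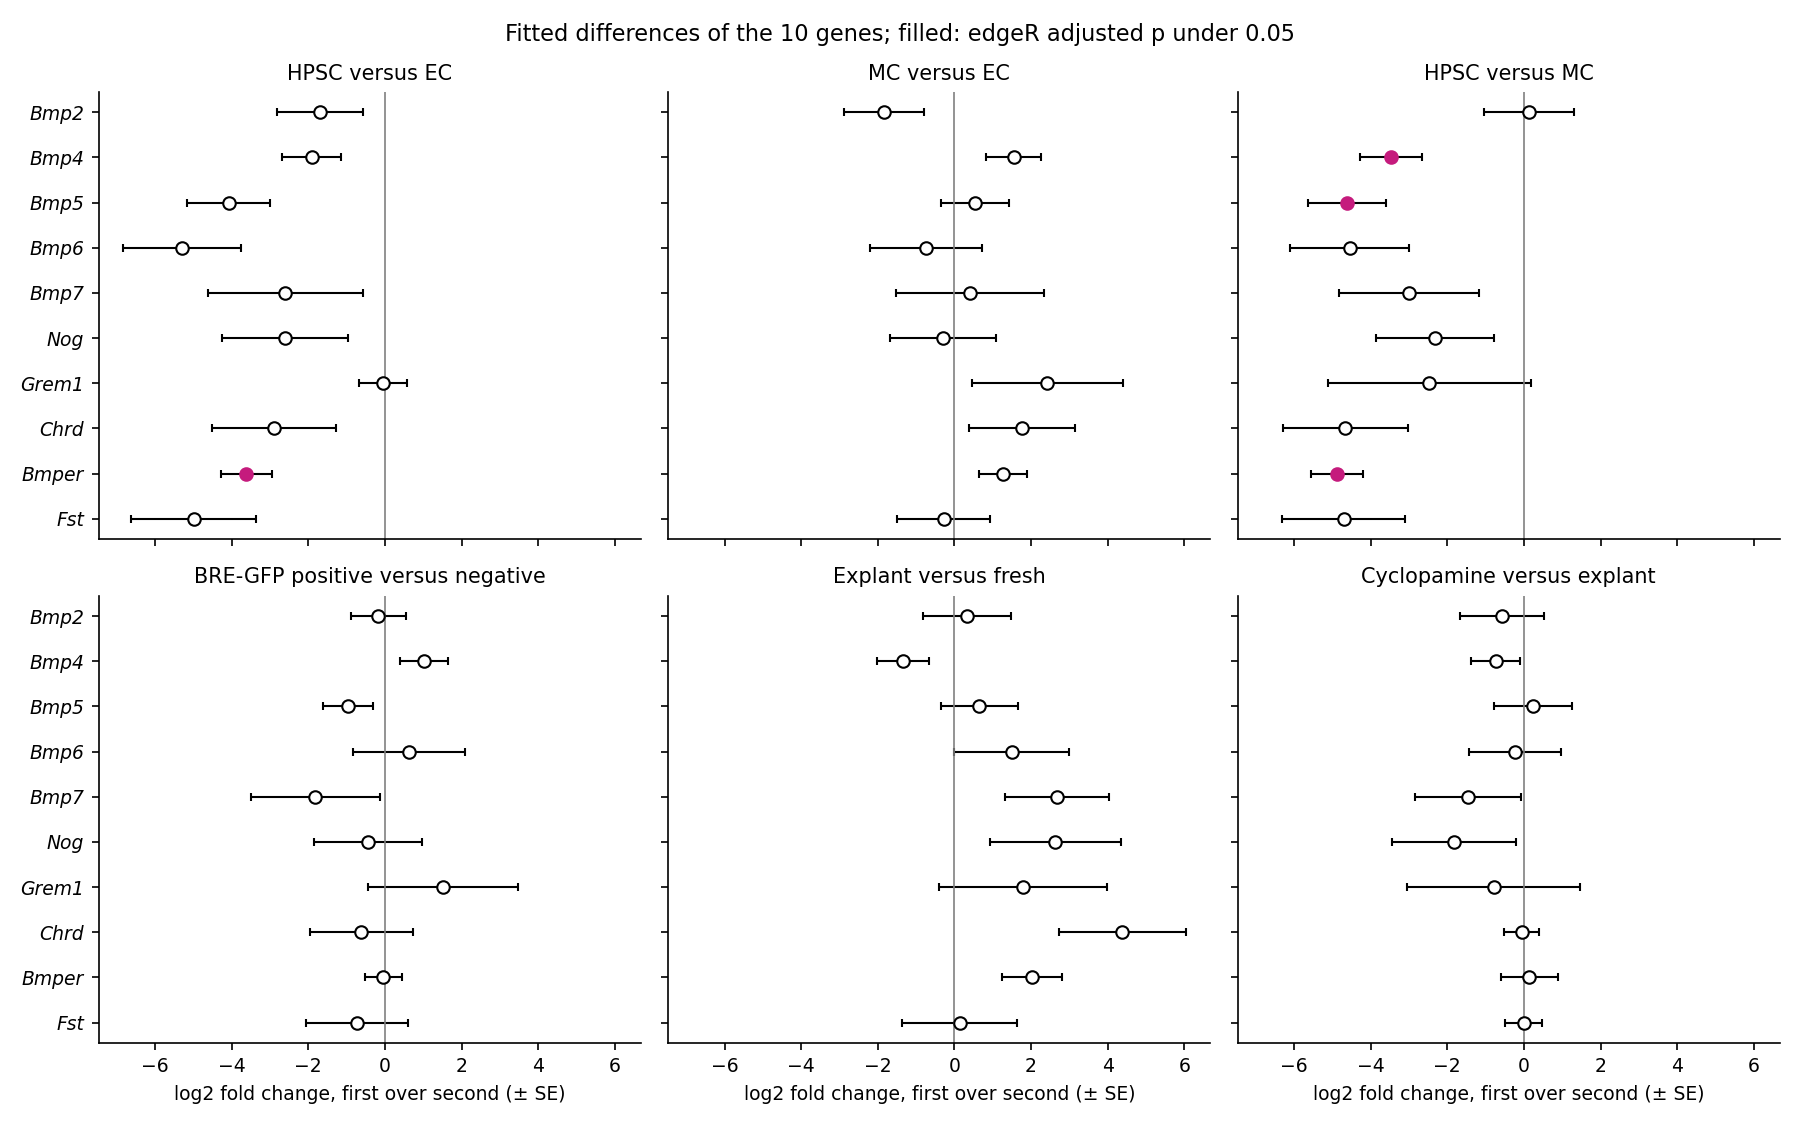
Fitted log2 fold change of each gene (first group over second, bars ± SE of the edgeR fit) in the 6 comparisons over all libraries, filled where the edgeR adjusted p was under 0.05. The filled points are Bmper in HPSC versus EC, and Bmp4, Bmp5 and Bmper in HPSC versus MC.

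Other genes of the pathway were set beside these in the HPSC and MC comparison, where 5.85% of all tested genes passed as lower in HPSC and 4.10% as higher. Of 14 genes listed as other BMP family ligands, 9 were tested and 3 passed, all lower in HPSC. They were Inhba, a subunit gene of activin and inhibin (1.32 ± 2.07 CPM in HPSC and 45.3 ± 17.0 CPM in MC), the inhibin alpha subunit gene Inha, and Bmp3 (0.559 ± 0.813 CPM in HPSC and 19.2 ± 10.3 CPM in MC). Of 21 other secreted and surface regulators, 19 were tested and 4 passed, all lower in HPSC: the chordin-like antagonist gene Chrdl1 (0.597 ± 1.09 CPM in HPSC and 22.9 ± 11.5 CPM in MC), the chordin protease gene Bmp1 (33.7 ± 17.4 CPM in HPSC and 117 ± 29.8 CPM in MC), Fstl1 and Vwc2. Of 13 receptor and SMAD genes, all tested, 2 were lower in HPSC and 1 higher. The type I receptor gene Bmpr1a averaged 35.6 ± 26.1 CPM in HPSC and 109 ± 36.4 CPM in MC, the co-receptor gene Neo1 averaged 22.6 ± 13.7 CPM in HPSC and 124 ± 34.0 CPM in MC, and the endothelial co-receptor gene Eng averaged 38.7 ± 36.6 CPM in HPSC and 4.91 ± 2.30 CPM in MC. Of 10 target genes, all tested, 4 passed and were lower in HPSC, namely Id1 (17.7 ± 9.75 CPM in HPSC and 57.3 ± 10.8 CPM in MC), Id2, Id3 and Msx2. Their edgeR adjusted p ran between 0.00142 (Inhba) and 0.0456 (Vwc2). Between MC and EC, where 2.54% of all tested genes passed, 1 gene of these lists passed, Eng, at 4.91 ± 2.30 CPM in MC and 43.3 ± 45.8 CPM in EC (edgeR adjusted p = 0.0398). Between HPSC and EC none of the 4 lists had a gene past the threshold in edgeR, where 0.320% of all tested genes passed. At an unadjusted p under 0.05 there were 2 other ligands, 5 regulators, 3 receptor and SMAD genes and 3 targets, where 9.32% of all genes reached it. DESeq2 passed 2, 3, 2 and 0 genes of these lists in that order, and limma-voom 2, 1, 0 and 0. Of all 16231 genes tested, DESeq2 passed 795 and limma-voom 228.

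Between the BRE-GFP fractions none of the 10 genes passed in edgeR over the 9 pairs with population and culture in common, where 0.0554% of all tested genes passed. The count was 0 at an unadjusted p under 0.05 (5.30% of all genes), in DESeq2 and in limma-voom. Bmper averaged 77.7 ± 80.1 CPM in positive and 76.6 ± 78.5 CPM in negative libraries (n = 9 each, log2 fold change -0.05 ± 0.48), and no gene stood on the same side in all 9 pairs. Bmp4 was higher in the positive library in 6 of 9 pairs (34.6 ± 29.5 CPM in positive and 30.1 ± 30.0 CPM in negative libraries, log2 fold change 1.01 ± 0.63, not past the threshold). Of the 10 BMP target genes none passed, while 8 were fitted higher in positive libraries and 2 lower. Their median log2 fold change was 0.85, against 0.11 over all tested genes. The 2 targets at an unadjusted p under 0.05 lay on opposite sides. Id3, a direct target, averaged 473 ± 252 CPM in positive and 327 ± 214 CPM in negative libraries and was higher in 8 of 9 pairs (log2 fold change 0.62 ± 0.21, edgeR adjusted p = 0.679). Id2, another direct target, averaged 536 ± 309.8 CPM in positive and 684 ± 242 CPM in negative libraries and was higher in 2 of 9 pairs (-0.48 ± 0.20, edgeR adjusted p = 0.867).

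Within HPSC, Bmp4 and Bmp7 stood on opposite sides of the BRE-GFP sort. Bmp4 had 37.9, 5.28 and 6.47 CPM in positive HPSC of fresh, explant and cyclopamine cultures, against 7.17, 0.159 and 0.754 CPM in negative HPSC of the same cultures. The positive library was higher in each culture, though the positive explant library lay below the negative fresh one. Bmp7 had 0, 0.200 and 0 CPM in positive HPSC, against 2.81, 11.4 and 0.377 CPM in negative HPSC. The groups did not overlap, but the lowest negative value was a single count in the shallowest library. Neither passed in edgeR, where 0.0370% of all genes passed and 7.60% had an unadjusted p under 0.05 (Bmp4 log2 fold change 3.38 ± 0.94, adjusted p = 0.353, and Bmp7 -6.18 ± 2.49, adjusted p = 0.606), and both passed in DESeq2 (adjusted p = 0.000728 for Bmp4 and 0.0373 for Bmp7) but not in limma-voom (adjusted p = 0.342 and 0.276). Over all 16231 genes, DESeq2 passed 929 between these fractions, limma-voom 51 and edgeR 6. Of all tested genes, 14.0% were higher and 10.8% lower in all 3 HPSC pairs, and 5.21% lower without overlap.

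Cell makeup differed between the same fractions. The 10 endothelial markers summed to 3528 to 7859 CPM in positive and 392 to 1649 CPM in negative HPSC, the 10 hematopoietic progenitor markers to 1819 to 3323 CPM in positive and 5562 to 11670 CPM in negative HPSC, and the 6 germ cell markers to 109.6 to 126 CPM in positive and 285 to 773 CPM in negative HPSC. The 9 urogenital epithelium and coelomic markers summed to 41.0 to 57.2 CPM in positive and 5.80 to 18.9 CPM in negative HPSC. For the 7 erythroid markers the sums were 63.4 to 173 CPM in positive and 211 to 249 CPM in negative HPSC. The part of these markers in the Bmp4 and Bmp7 values was not tested. In EC and in MC none of the 10 genes passed between the fractions in edgeR, at an unadjusted p under 0.05, in DESeq2 or in limma-voom, where 0.0123% of all genes passed in edgeR in EC and 0% in MC, and 4.29% in EC and 0.431% in MC had an unadjusted p under 0.05. In MC, Fst had 0.200, 11.8 and 9.77 CPM in positive and 17.9, 15.2 and 19.1 CPM in negative libraries, so that each positive library lay below each negative one. Bmp6 was also lower in the positive library of all 3 pairs, but with 18 against 20 counts in explants (1.25 and 1.36 CPM). In the fresh pair it had 0 counts in MC fresh positive, which allow up to 0.599 CPM, against 1.11 CPM. Marker sums separated the same MC fractions: the 10 mesenchymal markers summed to 6648 to 8373 CPM in positive and 2881 to 5433 CPM in negative MC, the 10 sympathetic neural crest markers to 632 to 983 CPM in positive and 186 to 524.5 CPM in negative MC, and the 10 hematopoietic progenitor markers to 67.1 to 119 CPM in positive and 139 to 222.5 CPM in negative MC. Their part in the Fst and Bmp6 values was not tested. Of all tested genes, 16.2% were lower in all 3 MC pairs and 3.88% without overlap. The test of whether the BRE-GFP effect differs between populations passed for none of the 10 genes (edgeR adjusted p = 1 for each, with 0% of all genes past the threshold; 1 member at an unadjusted p under 0.05, where 2.27% of all genes reached it; 0 in DESeq2).

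**Figure D4:**
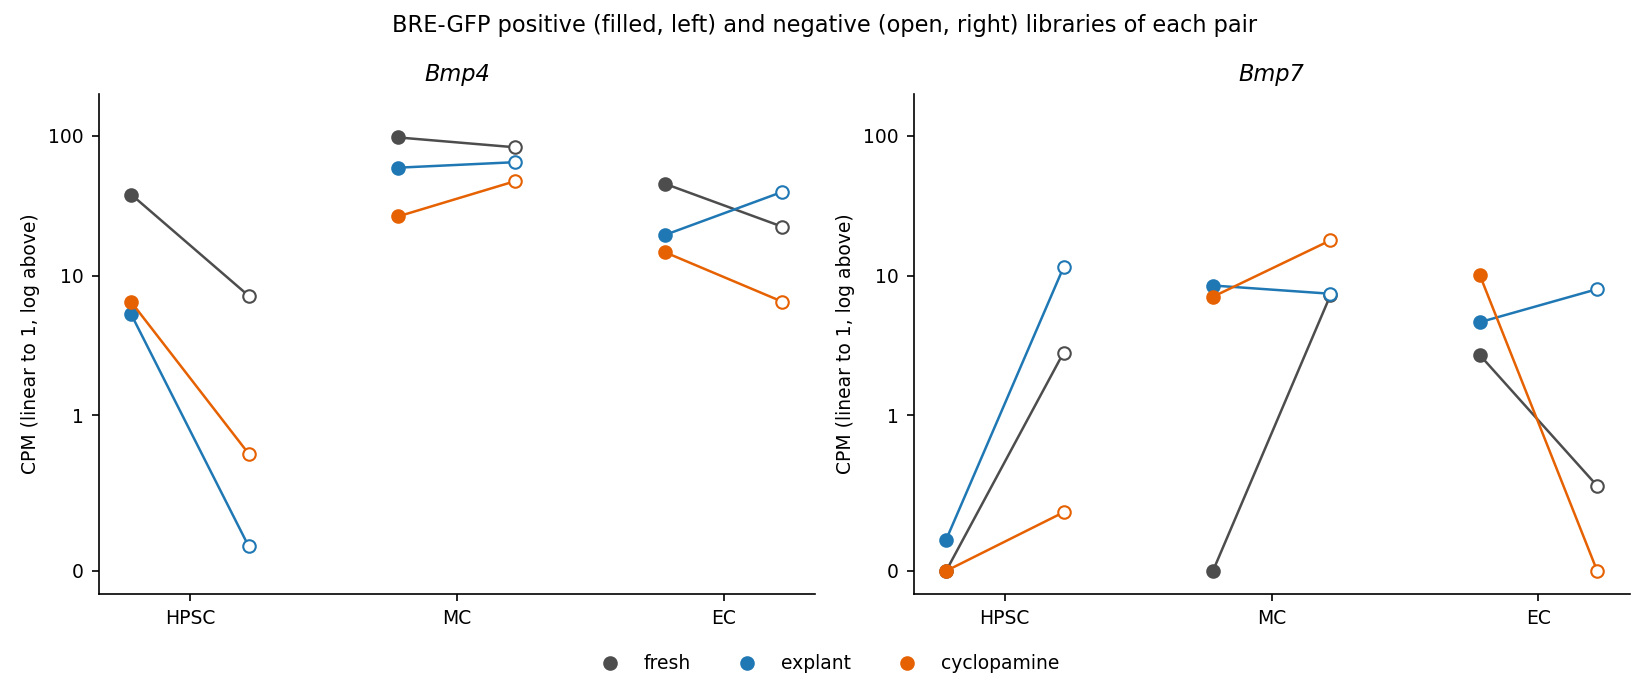
Bmp4 (left) and Bmp7 (right) in the BRE-GFP positive (filled) and negative (open) library of each pair, in CPM (linear to 1, logarithmic above), with lines joining libraries of the same population and culture. In HPSC all 3 lines of Bmp4 run down toward the negative fraction and all 3 of Bmp7 run up.

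Culture changed none of the 10 genes past the threshold over all populations. Between explant and fresh libraries the count was 0 in edgeR, where 0.136% of all genes passed, 2 at an unadjusted p under 0.05 (8.58% of all genes), and 0 in DESeq2 and limma-voom. Bmper, Chrd and Bmp7 were higher in the explant library in all 6 blocks, as were 5.72% of all tested genes. For Chrd and Bmp7 this rested in part on blocks below the limit of detection. Chrd in negative HPSC had 1 count in explant (0.0795 CPM) and 0 in fresh, which allow up to 0.291 CPM. Bmp7 in positive HPSC had 3 counts in explant (0.200 CPM) and 0 in fresh, which allow up to 0.359 CPM. Bmper averaged 101 ± 85.7 CPM in explant and 32.3 ± 47.5 CPM in fresh libraries (n = 6 each, log2 fold change 2.03 ± 0.78, edgeR adjusted p = 0.411). Chrd averaged 1.56 ± 1.33 CPM in explant and 0.316 ± 0.722 CPM in fresh libraries (4.39 ± 1.65, edgeR adjusted p = 0.397), and 4 of the 6 fresh libraries had no count of it. Bmp7 averaged 6.70 ± 3.86 CPM in explant and 2.21 ± 2.76 CPM in fresh libraries (2.67 ± 1.36, edgeR adjusted p = 0.633). Bmp4 went the other way in 5 of 6 blocks, with 31.4 ± 27.3 CPM in explant and 48.7 ± 34.7 CPM in fresh libraries (-1.35 ± 0.68, edgeR adjusted p = 0.618).

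Bmper in EC differed most plainly between fresh and cultured libraries. The 2 explant EC libraries had 78.8 and 222 CPM (1172 and 1246 counts, BRE-GFP positive and negative), against 4.91 and 4.82 CPM in fresh EC (78 and 44 counts). With cyclopamine the 2 EC libraries had 216 and 70.9 CPM, so all 4 cultured EC libraries lay above both fresh ones. The explant pair also lay above the fresh pair for Bmp5, Bmp7 and Chrd, so 4 of the 10 genes had this pattern, against 16.0% of all tested genes. Bmp5 had 13.5 and 27.4 CPM in explant and 6.23 and 4.38 CPM in fresh EC. With cyclopamine, Bmp5 and Chrd again lay above both fresh libraries, but Bmp7 had no count in the negative one. The Bmper log2 fold change between explant and fresh EC was 4.96 ± 1.19. It did not pass in edgeR with low genes filtered out (adjusted p = 0.566), where 0.00616% of all genes passed. It passed with no filter (edgeR adjusted p = 0.0359) and in DESeq2 (adjusted p = 0.000622), but not in limma-voom (adjusted p = 0.646). The genes passing over all were 31 with no filter, 119 in DESeq2 and 5 in limma-voom. In HPSC, Bmper had 6.74 and 7.87 CPM in explant and 0.598 and 4.46 CPM in fresh libraries, and in MC 151 and 142 CPM in explant and 62.9 and 116 CPM in fresh libraries. The difference of the explant effect between populations did not pass for any of the 10 genes (edgeR adjusted p = 1, with 0% of all genes past the threshold; 2 members at an unadjusted p under 0.05, where 0.998% of all genes reached it; 0 in DESeq2).

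Mesenchymal markers were also higher in cultured EC. The 10 markers summed to 4702 and 4435 CPM in explant EC (BRE-GFP positive and negative), 7218 and 4348 CPM in cyclopamine EC and 1830 and 1131 CPM in fresh EC, and all 10 had a fitted value above 0 between explant and fresh EC (median log2 fold change 1.40, against -0.01 over all genes). Per 1000 CPM of these markers, Bmper stood at 16.3 to 49.9 in the 4 cultured EC libraries and at 2.68 and 4.26 in the 2 fresh ones. The same ratio was 7.51 to 40.4 in MC. The part of mesenchymal cells in the Bmper difference was not tested.

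**Figure D5:**
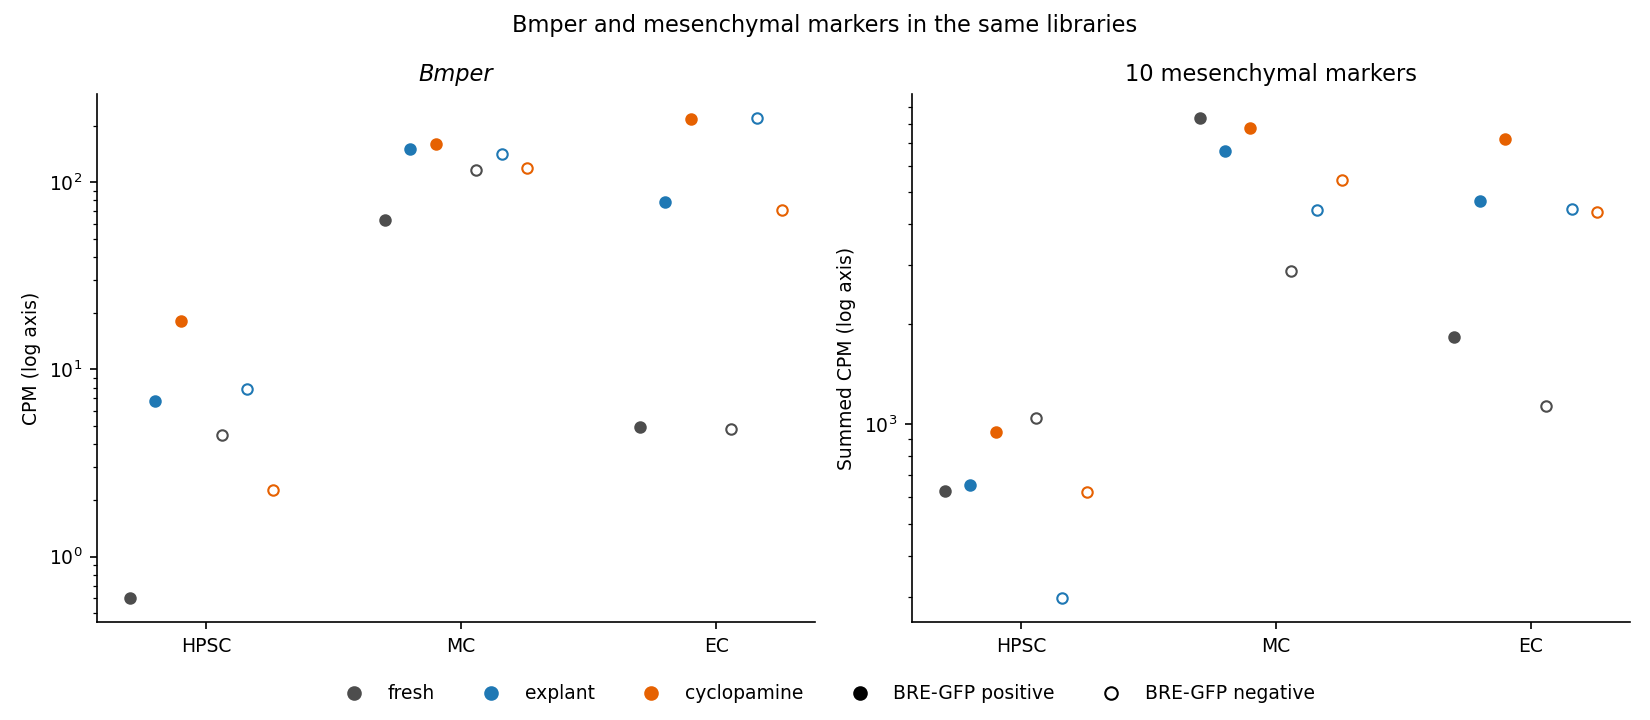
Bmper (left, CPM) and the sum of the 10 mesenchymal markers (right, CPM) in each library, both on logarithmic axes. In EC the 2 fresh libraries are lowest in both panels, at 4.82 and 4.91 CPM of Bmper and 1131 and 1830 CPM of the markers.

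Within the other populations, none of the 10 genes passed between explant and fresh libraries in edgeR, where 0% of all genes passed (1 at an unadjusted p under 0.05 in HPSC and 0 in MC, against 4.31% and 2.48% of all genes, and 1 in HPSC and 0 in MC in DESeq2). In HPSC, Bmp4 had 5.28 and 0.159 CPM in explant (BRE-GFP positive and negative) and 37.9 and 7.17 CPM in fresh libraries. Both explant values lay below both fresh ones (log2 fold change -3.90 ± 1.14, edgeR adjusted p = 1, DESeq2 adjusted p = 0.00249, limma-voom adjusted p = 0.377), a pattern of 11.5% of all tested genes. DESeq2 passed 270 genes in all between explant and fresh HPSC, and limma-voom 2. Fst in HPSC rested on 1 library, with 0.801 and 0 CPM in explant and 0 and 18.2 CPM in fresh libraries. In MC, where Bmp4 had 59.0 and 64.6 CPM in explant and 97.1 and 82.5 CPM in fresh libraries, 7 of the 10 genes were higher in explant in both pairs, as were 40.2% of all tested genes. The MC fresh positive library, with 0 counts of 5 of the 10 genes, was the fresh library of 1 of those pairs.

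Cyclopamine gave no member past the threshold against explant culture without it. The count was 0 in edgeR, at an unadjusted p under 0.05, in DESeq2 and in limma-voom, and 0% of all tested genes passed in edgeR, with 8.13% at an unadjusted p under 0.05. Bmper averaged 97.9 ± 83.2 CPM with cyclopamine and 101 ± 85.7 CPM in explants without it (n = 6 each, log2 fold change 0.15 ± 0.74, edgeR adjusted p = 0.999). Bmp4 averaged 17.0 ± 17.3 CPM with cyclopamine and 31.4 ± 27.3 CPM without (-0.74 ± 0.64, edgeR adjusted p = 0.946) and was lower with cyclopamine in both EC and both MC pairs. In positive HPSC it had 6.47 CPM with cyclopamine and 5.28 CPM without. In negative HPSC it had 2 counts in each library (0.754 CPM with cyclopamine and 0.159 CPM without), so that pair shows no direction. The SEs are wide, so the data do not show that cyclopamine left the genes unaltered. Reads outside annotated features made up 19.5 to 33.0% of reads with cyclopamine and 35.0 to 49.4% in explants without it. These ranges did not overlap, so the treatment and this share cannot be told apart. With the share as a covariate, the fitted values of Bmp5, Bmp6, Grem1 and Bmper changed sign.

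Within HPSC, 5 of the 10 genes were lower with cyclopamine in both pairs, as were 33.2% of all tested genes. Bmp2 had 0.0911 and 0.377 CPM with cyclopamine (1 count each, BRE-GFP positive and negative) and 16.0 and 2.62 CPM in explants without it (log2 fold change -5.45 ± 2.12, edgeR adjusted p = 0.704, DESeq2 adjusted p = 0.0144, limma-voom adjusted p = 0.350). DESeq2 passed 405 genes in all in this comparison, and limma-voom 4. Nog had no count in either cyclopamine library and 17 and 12 counts in the explants (1.14 and 0.954 CPM). Grem1 went the other way in 1 pair, with 8.38 and 0 CPM with cyclopamine and 0.134 and 0 CPM without. HPSC cyclopamine negative had the lowest depth of all libraries, and 0 counts there allow up to 1.13 CPM.

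In EC, Bmp4 and Bmp5 stood on opposite sides of the cyclopamine treatment. Bmp4 had 14.7 and 6.50 CPM with cyclopamine (BRE-GFP positive and negative) and 19.5 and 39.6 CPM without (log2 fold change -1.63 ± 1.05, edgeR adjusted p = 0.922). Bmp5 had 36.0 and 129.8 CPM with cyclopamine and 13.5 and 27.4 CPM without (1.92 ± 1.36, edgeR adjusted p = 0.922). For both genes the 2 groups did not overlap. This held for 10.6% of all tested genes on the higher and 19.0% on the lower side. Bmp2 and Fst were also higher without overlap. Bmp2 had 29.7 and 21.2 CPM with cyclopamine and 17.1 and 9.78 CPM without. Fst had 19.8 and 15.3 CPM with cyclopamine and 9.88 and 4.09 CPM without. In both pairs 3 of the 10 genes were higher and 1 lower, as were 17.1% and 27.4% of all tested genes. None of the 10 genes passed in any of the 3 tools. The highest Bmp5 value of the series, 129.8 CPM (998 counts), was that of EC cyclopamine negative, in which Bmp6, Bmp7, Nog and Grem1 had no count. The 9 urogenital epithelium and coelomic markers summed to 156 and 346 CPM in the same EC libraries with cyclopamine (BRE-GFP positive and negative) and 117 and 67.0 CPM without, and 346 CPM was the highest sum of the 18 libraries. A count was found for 7 and 5 of the 9 markers with cyclopamine and for 9 and 5 without, in the same order. The part of these markers in the Bmp5 values was not tested. The test of whether the cyclopamine effect differs between populations passed for none (edgeR 0 of 10 and 0% of all genes, 0 members at an unadjusted p under 0.05 with 1.56% of all genes, and 0 in DESeq2).

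Across the 18 libraries the levels of most pairs of members went in the same direction. Of the 45 pairs of members, 43 had a positive Pearson r of log2 CPM (median 0.48), and 35 were positive (median 0.24) once the population means were removed. The genes most like Bmper over the 18 libraries, among 10819 candidates, were Pdgfrb, Dkk3 and Gpm6b (r = 0.94 each), with Pdgfrb itself on the list of mesenchymal markers. Those most like Bmp5 were Dclk1 (r = 0.95), Nfatc4 (0.94) and Stra6 (0.94), and those most like Bmp4 were Serping1, Foxc1 and Zc3hav1l (0.88 each). Bmp2 was most like Tnni3 (r = 0.89), Trim47 and Kif16b. The libraries share population, culture and depth, so these r are given as descriptions. Positive pairs were not counted among other genes, so the 43 of 45 has no reference here.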

How the data were processed

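The 18 deposited tables hold whole-number read counts per gene symbol, 1 table per library, made by the authors with no normalization. Per the submitters' processing notes, TopHat, Cufflinks, HTSeq and the mm10 build were used. No version, annotation or strand setting is named in the sources used here. RNA was extracted with a mirVana kit and amplified with a SMARTER protocol, per the labels' protocols. Summary lines without a gene were left out, and of these the reads outside annotated features made up 19.5 to 49.4% and ambiguous reads at most 0.935% of the reads in a library.

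All 18 libraries entered each fit of edgeR 4.0.16 (R 4.3.3), with TMM scaling and the quasi-likelihood F test, and p was adjusted by Benjamini-Hochberg with a threshold of 0.05. A symbol was tested if 3 or more libraries reached 0.796 CPM, which is 10 counts in a library of median size. This held for 16231 of 21881 symbols and for all 10 members. Populations and cultures were compared within 6 blocks of matched libraries each (10 residual degrees of freedom), BRE-GFP fractions within 9 pairs (8), and effects inside 1 population and their differences in models with those terms (6). Over the fits, edgeR's common dispersion gave a biological coefficient of variation between 0.88 and 0.92. SE is the log2 fold change divided by the square root of F. Levels per length use GENCODE M21 exon unions on GRCm38, and promoters are from RefSeq on GRCm38.p6.

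The members, the 4 pathway lists and the marker lists were chosen with earlier results of these data known. All members were named, and of each pathway list up to 4 passing genes by lowest p. The genes most like a member were the 3 of highest Pearson r of log2 CPM (prior count 2) over the 18 libraries among genes with a mean of at least 5 CPM. Scripts were tested on simulated data. Alternatives were DESeq2 1.42.0, limma-voom without sample quality weights (limma 3.58.1), DESeq2-type size factors, no filter, an additive model, the share of reads at no feature as a covariate, leaving out each library, and, chosen after seeing the data, leaving out the library of fewest detected symbols of each population.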

Additional observations from a re-analysis of the deposited data

Results flagged for a closer look

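In 10 of 30 sets of 6 libraries (each gene in each population), the highest or lowest library stood apart from the rest by Dixon's criterion on log2 CPM, where chance flags about 1 in 20. The 6 libraries of a population differ in culture and BRE-GFP fraction, so they are not plain replicates. MC fresh positive was the low library in 6 of these sets, with 0.400 CPM of Bmp2, 0 CPM of Bmp6, Bmp7 and Chrd, 62.9 CPM of Bmper and 0.200 CPM of Fst, while its Bmp4, at 97.1 CPM, was the highest of all libraries. It had 4547062 counts and 12028 detected symbols, the fewest of the MC libraries. In HPSC, Grem1 stood at 8.38 CPM in cyclopamine positive, Fst at 18.2 CPM in fresh negative, and Chrd at 1.60 CPM and Bmp6 at 0.401 CPM in explant positive.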

How the results depend on the processing

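DESeq2-type size factors and the additive model changed no call among the 10 genes. DESeq2 called more members than edgeR: 4 against 1 for HPSC versus EC, 6 against 3 for HPSC versus MC, 2 against 0 for the BRE-GFP fractions in HPSC, and 1 against 0 for explant versus fresh in HPSC, explant versus fresh in EC and cyclopamine versus explant in HPSC. limma-voom called 2 for HPSC versus EC and 6 for HPSC versus MC. With no filter on low counts 1 member, Bmper, passed for explant versus fresh in EC. With the percentage of reads outside annotated features as covariate, 0 members passed for HPSC versus EC (Bmper -4.16 on the log2 scale, edgeR adjusted p = 0.116), and without the library of fewest detected symbols of each population, an alternative chosen after seeing the data, 0 passed as well. Leaving out 1 library at a time gave 0 to 2 members for HPSC versus EC (Bmp5 passing without EC fresh negative or HPSC fresh negative) and 3 to 4 for HPSC versus MC (Fst without EC fresh negative or HPSC fresh negative, Chrd without HPSC explant positive), and 0 for all other comparisons. The causes of these differences were not tested. No paired analysis was possible because the labels carry no replicate numbers to pair by. The blocks and pairs of the fits match libraries by condition only.

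No gene past the threshold changed sign, but fitted log2 fold changes of genes that did not pass did, and their values under each alternative are as follows. In DESeq2 the sign changed for 4: Grem1 0.80 for HPSC versus EC, Chrd 0.063 for cyclopamine versus explant, Fst -0.039 for the fractions in HPSC, Grem1 -0.077 for the fractions in MC. In limma-voom the sign changed for 17: Grem1 0.62 for HPSC versus EC, Nog 0.28 and Fst 0.033 for MC versus EC, Bmp2 -0.48 for HPSC versus MC, Bmper 0.094 for the BRE-GFP fractions, Chrd 0.14 and Fst 0.44 for cyclopamine versus explant, Bmper 0.045 and Fst -1.23 for the fractions in HPSC, Bmper 0.092 for the fractions in MC, Bmp2 0.062, Bmp6 0.79 and Nog 1.12 for explant versus fresh in EC, Bmp6 0.37 for cyclopamine versus explant in HPSC, Nog -1.05 and Bmper 0.36 for cyclopamine versus explant in EC, Fst 0.20 for cyclopamine versus explant in MC. In the additive model the sign changed for 5: Grem1 1.34 for HPSC versus EC, Bmp2 0.13 for the BRE-GFP fractions, Fst -1.10 for explant versus fresh, Grem1 1.11 and Fst 0.34 for cyclopamine versus explant. With the covariate the sign changed for 10: Grem1 5.41 for HPSC versus EC, Fst 0.74 for MC versus EC, Grem1 1.37 for HPSC versus MC, Bmp7 0.48, Nog 0.22 and Bmper 0.46 for the BRE-GFP fractions, Bmp5 -4.29, Bmp6 0.15, Grem1 0.21 and Bmper -4.70 for cyclopamine versus explant. Without the 3 libraries of fewest detected symbols the sign changed for 25: Grem1 0.075 for HPSC versus EC, Fst 0.14 for MC versus EC, Bmp2 0.26 and Chrd 0.64 for the BRE-GFP fractions, Fst -0.34 for explant versus fresh, Bmp5 -0.22, Bmp6 0.21 and Fst 0.28 for cyclopamine versus explant, Fst -2.05 for the fractions in HPSC, Bmp2 -0.19, Bmp4 -0.0059, Nog -0.18, Bmper -0.78 and Fst -0.10 for the fractions in EC, Bmp2 0.12, Chrd 0.15 and Bmper 0.23 for the fractions in MC, Bmp6 0.70 and Nog 1.27 for explant versus fresh in EC, Bmp5 -0.094 and Fst -0.11 for explant versus fresh in MC, Bmp6 0.61, Bmp7 0.24 and Bmper 1.07 for cyclopamine versus explant in EC, Fst 0.086 for cyclopamine versus explant in MC. With no filter the sign changed for 1: Fst 0.0092 for cyclopamine versus explant. Size factors of the DESeq2 type changed 0 signs. For genes that did not pass, fold changes with 1 library left out were not computed.

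Counts over all genes moved more. DESeq2 called 795 for HPSC versus EC (edgeR 52), 1245 for MC versus EC (413), 3580 for HPSC versus MC (1615), 371 for BRE-GFP fractions (9), 487 for explant versus fresh (22) and 172 for cyclopamine versus explant (0). limma-voom, run without sample quality weights, called 228, 781, 2883, 73, 165 and 43 in the same order. Leaving out 1 library gave 1 to 77, 259 to 492, 903 to 1891, 0 to 6, 7 to 39 and 0 to 0 in the same order, and 0 to 13 for the BRE-GFP fractions in HPSC. It gave 0 to 611 for cyclopamine versus explant in HPSC and 0 to 59 for the difference of the cyclopamine effect, both above 0 without HPSC cyclopamine positive only, and 0 to 185 for cyclopamine versus explant in EC, above 0 without EC cyclopamine positive only. The shares of all genes given beside the members' counts vary with these counts. No filter gave 21 for BRE-GFP fractions and 39 for explant versus fresh. The covariate gave 5 for HPSC versus EC, 517 for HPSC versus MC, 0 for BRE-GFP fractions and 0 for explant versus fresh. The additive model gave 14 for explant versus fresh. Leaving out the 3 libraries of fewest detected symbols gave 32 for HPSC versus EC, 0 for BRE-GFP fractions and 36 for explant versus fresh. Within populations DESeq2 called 929, 424 and 2 for the BRE-GFP fractions in HPSC, EC and MC (edgeR 6, 2 and 0), 270, 119 and 62 for explant versus fresh (0, 1 and 0) and 405 and 134 for cyclopamine versus explant in HPSC and EC (0 and 0), and no filter gave 96 for the BRE-GFP fractions in HPSC, 18, 31 and 8 for explant versus fresh and 2 for cyclopamine in EC. limma-voom gave 51 and 5 for the BRE-GFP fractions in HPSC and EC, 2, 5 and 4 for explant versus fresh in HPSC, EC and MC, and 4 and 0 for cyclopamine versus explant in HPSC and EC. For the differences between populations DESeq2 called 49 (BRE-GFP), 18 (explant) and 62 (cyclopamine), and no filter 1, 6 and 1, against 0 in edgeR.

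Depth limits Grem1, Nog, Chrd and Bmp6 most, with 205, 290, 441 and 341 counts over all 18 libraries, and with 1 library per combination no result has a repeat at the same condition.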
